A study of Homo sapiens with 4 samples.

Results

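The C/EBP family of transcription factors was examined here together with ATF4 and CHOP (gene DDIT3), the basic leucine zipper factors of the stress response that pair with it. The 6 genes, CEBPA, CEBPB, CEBPD, CEBPG, ATF4 and DDIT3, were taken by name from the platform's annotation, which gave each of them 1 probe, so 6 probes of 26423 and 6 genes of 17778 named genes are described. They were proposed with berberine and control values of these samples in view, so their differences between the groups are a description and carry no test. Total RNA was measured on 4 one-colour arrays. Berberine, a plant alkaloid, had been given to 2 samples at 26.95 µM for 24 hours, and 2 samples were controls without it. All are labelled HepG2, a line from a human hepatocellular carcinoma, grown in DMEM with serum. The samples' description field names another protocol, a 48-hour differentiation called MDI with 13.47 µM berberine, where MDI commonly stands for the mixture that turns preadipocytes into fat cells, and this conflict was not resolved. The array was designed for the mouse, so a value under a gene name is the signal of a mouse probe. Whether the RNA on it was human, as labelled, or mouse was not settled, and human gene positions and promoters are given below only as the labels' species.

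C/EBP proteins bind DNA as pairs through a leucine zipper and recognise one common type of site, so the amounts of the family members set against each other decide which pairs form. In the liver C/EBPα is known for the metabolic genes of resting, differentiated hepatocytes, while C/EBPβ and C/EBPδ are known for the acute phase response and regeneration. ATF4 is made when translation initiation factor eIF2α is phosphorylated, binds composite sites together with C/EBP proteins, and activates DDIT3, whose product CHOP is a C/EBP family member that pairs with the others.

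The labelled cell type was checked first. Signals of 528 genes named OLFR, olfactory receptors that liver cells are not known to use, served as a background, and their 95th percentile was 9.24 on the log2 scale. Of 13 measured hepatocyte markers, 0 had a mean signal above it, among them the probes for albumin, apolipoprotein A1 and α-fetoprotein. Of 16 adipocyte markers 3 did, of 12 myeloid markers 1 and of 10 fibroblast markers 0. Few genes of any kind did, 1626 of all 17778 named genes, so low counts are common to most lists of this size. The summed signal of the hepatocyte markers was 10.45 and 10.68 in berberine samples and 10.90 and 10.87 in control samples on the log2 scale, and that of the adipocyte markers was 11.93 and 12.20 in berberine samples and 12.09 and 12.52 in control samples. The part of other cell types in the results below was not tested. The median intensity was 77 and 85 in berberine samples and 90 and 62 in control samples, and control 2 held 269 values below 0, against 0 to 11 in the other samples.

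The promoters of the 3 genes with the greatest differences are shown because their probes stood apart between the groups in opposite directions. They are the RefSeq windows of GRCh38.p14 from 250 bases before to 50 after a start site, written 5′ to 3′ along the gene. CEBPA lies at chr19:33302485-33302784 on the minus strand, CEBPB at chr20:50190580-50190879 on the plus strand (the downstream of 2 annotated starts) and ATF4 at chr22:39520309-39520608 on the plus strand (the upstream of 2). Capitals mark matches on either strand to the letters of the TATA box, TATAAA, to CCAAT, and to TGACG, the core of the cAMP response element.
CEBPA: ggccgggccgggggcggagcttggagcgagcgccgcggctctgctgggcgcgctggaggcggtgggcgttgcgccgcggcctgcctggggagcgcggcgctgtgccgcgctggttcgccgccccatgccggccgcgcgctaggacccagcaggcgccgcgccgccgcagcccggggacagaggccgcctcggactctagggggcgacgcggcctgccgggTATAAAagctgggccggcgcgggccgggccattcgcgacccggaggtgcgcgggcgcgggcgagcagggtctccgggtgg
CEBPB: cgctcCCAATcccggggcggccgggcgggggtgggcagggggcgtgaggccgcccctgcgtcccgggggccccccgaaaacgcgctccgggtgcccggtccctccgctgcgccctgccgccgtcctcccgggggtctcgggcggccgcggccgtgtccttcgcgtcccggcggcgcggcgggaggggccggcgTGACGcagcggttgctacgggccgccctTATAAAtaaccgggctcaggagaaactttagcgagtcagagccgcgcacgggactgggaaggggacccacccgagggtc
ATF4: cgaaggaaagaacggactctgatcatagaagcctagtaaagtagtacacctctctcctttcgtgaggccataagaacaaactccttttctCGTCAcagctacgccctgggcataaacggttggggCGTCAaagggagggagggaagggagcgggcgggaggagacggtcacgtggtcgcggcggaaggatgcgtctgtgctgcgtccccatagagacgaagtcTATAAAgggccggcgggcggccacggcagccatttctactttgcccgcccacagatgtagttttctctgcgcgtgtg
Counting the base before the start site as -1, TATA letters began at -30 in the CEBPA window, at -29 in that of CEBPB and at -27 in that of ATF4, and 11.5% of all 35116 promoter windows held these letters. The TGACG core began at -57 in the CEBPB window, and its complement at -160 and -125 in the ATF4 window. The window of the upstream CEBPB start, not shown, held CCAAT letters but no TGACG or TATA match. The CEBPA window held no TGACG match, while 24.6% of all windows held at least 1. The CCAAT letters, held by 34.6% of all windows, occurred at -245 in the CEBPB window. The C/EBP letters TTGCNNAA (10.5% of all windows), the AP-1 letters TGANTCA (7.71%) and the composite C/EBP-ATF letters TGATGNAA (3.62%), searched on both strands, matched in none of these 3 windows. No motif searched overlapped another in them. A match is only a run of letters, and the absence of one says nothing of a factor's binding outside it.

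The composite letters did occur at CEBPG, in the window of the downstream of its 2 starts, at -42. The stretch is shown, at chr19:33374060-33374089 on the plus strand of GRCh38.p14 with the match in capitals, because this is the type of site that ATF4 and C/EBP proteins are known to share.
CEBPG: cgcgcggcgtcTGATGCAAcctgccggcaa
The DDIT3 windows held TGACTCA, which fits the AP-1 letters, at -241 in the window listed first, and CCAAT letters on both strands. The mouse probes carry no sequence in the files used here, so nothing was aligned between probe and gene.

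Berberine samples differed from controls most at CEBPA and CEBPB, in opposite directions. The CEBPA probe (mMC021622) read an intensity of 906 and 1007 in berberine samples, against 4727 and 3678 in control samples. Both berberine values were lower than both control values. After quantile normalization the log2 levels were 10.08 and 9.99 in berberine samples and 11.99 and 11.85 in control samples, means of 10.03 ± 0.063 and 11.92 ± 0.10 (SD, n = 2 each). The log2 difference was -1.89 (SE 0.12), a level 3.70-fold lower with berberine. In bulk RNA, fewer cells that carry a transcript and less of it per cell cannot be told apart, here and below. Among the 1626 genes with a mean above the olfactory receptor percentile, CEBPA had the 6th lowest difference. The gap between the nearest samples of the 2 groups was 1.77, while replicates lay 0.089 apart with berberine and 0.14 apart in the controls.

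The CEBPB probe (PH_mM_0001606) read 10650 and 13722 in berberine samples, against 4955 and 4010 in control samples. Here both berberine values were higher than both controls, again by far more than replicates differed. The log2 levels were 13.55 and 13.68 in berberine samples and 12.07 and 12.0 in control samples, means of 13.62 ± 0.092 and 12.04 ± 0.045 (SD, n = 2 each). The difference was 1.58 (SE 0.116), or 2.99-fold higher. It ranked 18th from the top among the same 1626 genes, and the CEBPB probe itself was brighter than 99.5% of all named genes. CEBPA and CEBPB were the 2 members of the 6 whose means in both groups lay above the olfactory receptor percentile.

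**Figure D1:**
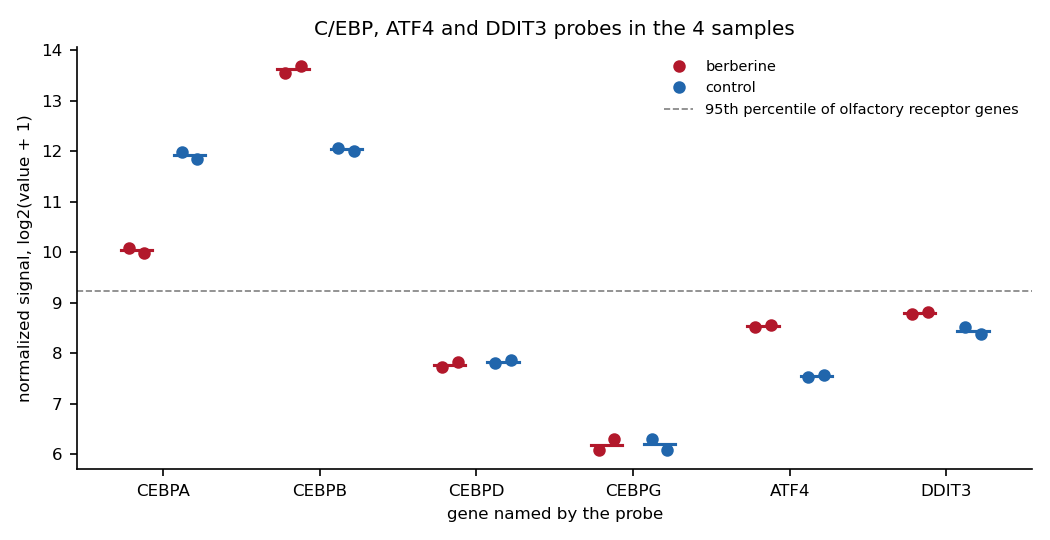
Normalized signal, log2(value + 1), of the 6 probes in each sample, with berberine samples left of control samples, group means as bars and the olfactory receptor 95th percentile (9.24) as a dashed line. CEBPA was at 10.03 with berberine and 11.92 in controls, CEBPB at 13.62 and 12.04, and the other 4 probes lay below the line in all samples.

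The balance of the pair was followed within each array as the log2 signal of the CEBPA probe minus that of the CEBPB probe. Since the 2 probes need not respond alike to equal amounts of RNA, only its difference between the groups is read, and not its level. The balance was -3.47 and -3.69 in berberine samples, against -0.07 and -0.15 in control samples. Both berberine samples lay far below both controls, and the gap of 3.32 between the nearest samples compares with 0.22 between the berberine replicates and 0.079 between the controls. The means were -3.58 ± 0.15 and -0.11 ± 0.056 (SD, n = 2 each), a difference of -3.47, or an 11.1-fold lower ratio with berberine. As deposited, the CEBPA probe had 0.0851 and 0.0734 times the intensity of the CEBPB probe in berberine samples and 0.954 and 0.917 times in control samples. A scaling of a whole array does not move this ratio, and the difference was -3.56 for values as deposited and likewise after median centring. It ran from -3.58 to -3.36 when each sample in turn was left out.

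**Figure D2:**
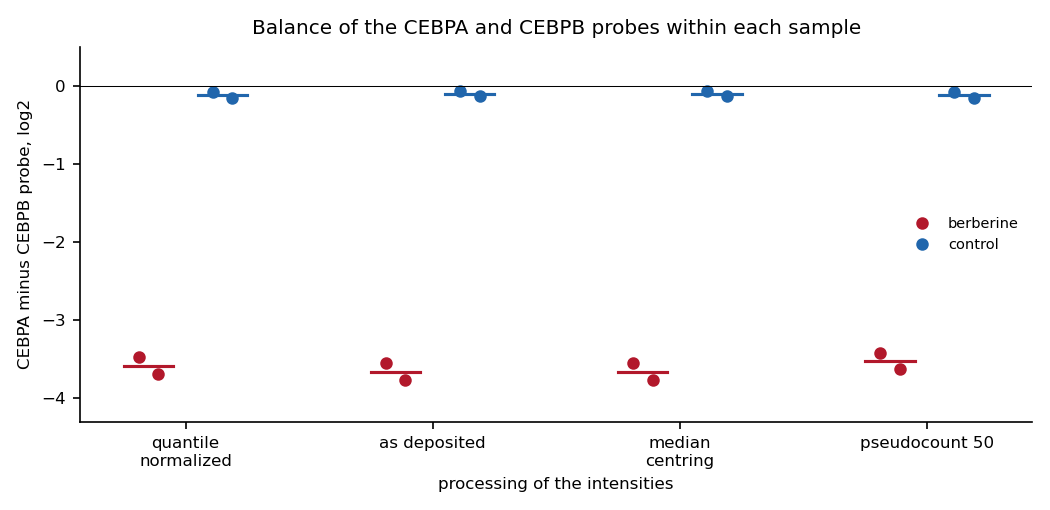
Log2 signal of the CEBPA probe minus that of the CEBPB probe in each sample under 4 ways of processing the intensities, with berberine samples left of control samples and group means as bars. The berberine samples lay between -3.77 and -3.42 and the controls between -0.15 and -0.07 in all of them.

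CEBPD, the family member that is induced with CEBPB in the acute phase and in early fat cell differentiation, showed no such gap. The intensities of its probe, PH_mM_0009121, were 183 and 231 in berberine samples and 253 and 219 in control samples. The groups overlapped, with log2 levels of 7.72 and 7.82 with berberine and 7.80 and 7.87 in controls, a difference of -0.07 (SE 0.114). With median centring the difference was -0.31 and both berberine values lay below both controls, so the overlap depended on the scaling. CEBPG, a short member that lacks a classical activation domain and pairs with other C/EBP proteins and ATF4, was measured by probe mMC009661. It read 67 and 84 in berberine samples and 90 and 51 in control samples. Its log2 levels of 6.09 and 6.30 with berberine spanned the same range as the 6.31 and 6.09 of the controls. The difference was -0.0068 (SE 0.151), and it turned to 0.14 for values as deposited and 0.03 with median centring. In GRCh38.p14 CEBPG begins 71.2 kb from CEBPA on chromosome 19 (33373709 to 33382686, against 33299934 to 33302534), so the probes named for these human neighbours differed by -0.0068 and -1.89. The CEBPG signal lay at the 41.5th percentile of all named genes, in the range of the olfactory receptor probes, so a difference there would be hard to detect.

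Of the stress factors, ATF4, which drives amino acid supply under stress (probe PH_mM_0009292), read 315 and 383 in berberine samples, against 210 and 178 in control samples. Both berberine values were higher than both controls. The log2 levels were 8.52 and 8.56 with berberine and 7.53 and 7.58 in controls, means of 8.54 ± 0.028 and 7.55 ± 0.038 (SD, n = 2 each). The difference was 0.99 (SE 0.107), or 1.98-fold, and it was 0.84 for values as deposited and 0.73 with median centring. Both group means were below 9.24, so this difference was measured within the range of the olfactory receptor probes. It was larger in size than 97.6% of the differences among the 1778 genes of like signal.

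DDIT3, whose product CHOP is known for its part in cell death under lasting stress (probe mMC006285), read 373 and 455 in berberine samples and 421 and 318 in control samples. As deposited the groups overlapped, and after quantile normalization the berberine levels of 8.77 and 8.82 lay above the control levels of 8.52 and 8.38. The log2 difference was 0.35 (SE 0.117), 0.17 for values as deposited and 0.06 with median centring. It was larger in size than 75.5% of the differences among the 1778 genes of like signal. The size of the DDIT3 difference thus depended on the scaling.

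Fitted over all 17778 genes with limma, 0 of the 6 probes passed an adjusted p of 0.05, where 0.0506% of all genes passed (9 genes) and 2318 genes had an unadjusted p under 0.05. With limma's variance allowed to follow signal (the trend fit), 3 of 6 passed, where 1.46% of all genes did (260 genes). CEBPA was lower, where 0.501% of all genes were lower past that threshold, and CEBPB and ATF4 were higher, where 0.962% were. No gene passed the trend fit once any 1 of the 4 samples was left out. The groups did not overlap at 4 of the 6 probes, 3 higher and 1 lower, where they did not overlap at 45.0% of all genes, 21.7% higher and 23.3% lower. As the members were chosen on this contrast, nothing is read from these counts. Without control 2, the sample with many values below 0, the differences were -1.96 for CEBPA, 1.55 for CEBPB, 1.01 for ATF4, 0.28 for DDIT3, -0.028 for CEBPD and -0.12 for CEBPG. The median difference of the 6 probes was 0.17, against -0.0091 for all genes.

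**Figure D3:**
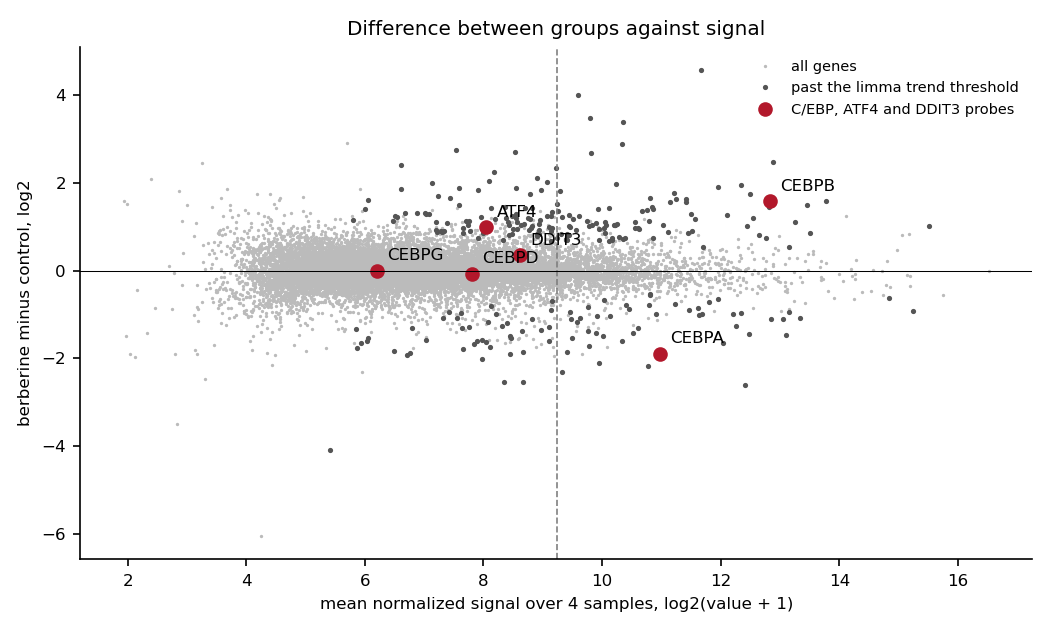
Log2 difference, berberine minus control, against mean log2 signal over the 4 samples for 17778 genes, with the 260 genes past the limma trend threshold in dark grey, the 6 probes in red and the olfactory receptor 95th percentile (9.24) as a dashed line. CEBPB at 1.58 and CEBPA at -1.89 lie to the right of the line, and CEBPD and CEBPG lie near 0.

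The genes around these factors were followed by lists. The first list held 10 genes. They covered the switch that turns ATF4 translation on and off (eIF2α kinases, their substrate, its phosphatase subunits), and IMPACT and NCK1. Of these 10, 0 passed either limma fit, and the median difference was -0.0026. PPP1R15B, a regulatory subunit that directs dephosphorylation of eIF2α, had the smallest p, at 0.52 with 5.11 in berberine samples and 4.60 in control samples (limma adjusted p = 0.278, signals in the background range). The list's median moved only between -0.018 and 0.096 over the 3 scalings. Of 25 partner factors with a leucine zipper and Tribbles proteins, some of which mark C/EBPα for degradation, 0 passed either fit as well. Their median was 0.0072, and it was 0.066 for values as deposited and -0.048 with median centring. HLF, a leucine zipper factor of the circadian output, had the smallest p, at -1.60 with signals of 3.27 in berberine samples and 4.87 in control samples (limma adjusted p = 0.147). The intensities of HLF as deposited were 17 and 7 in berberine samples and 41 and 11 in control samples, so the groups overlapped before normalization, and all lay in the background range.

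Among genes that ATF4 is known to activate for amino acid supply, the ones past a threshold were 2 aminoacyl-tRNA synthetases, in the trend fit. Of 23 measured genes 0 passed the main fit and 2 were higher in the trend fit, where 0.0506% of all genes passed the main fit and 0.962% were higher past the trend threshold. The median difference was 0.0087 against -0.0091 for all genes, and it was 0.052 for values as deposited and -0.061 with median centring. MARS, the methionyl-tRNA synthetase, read 3177 and 3987 in berberine samples and 1603 and 1275 in control samples, a difference of 1.56 (SE 0.119, limma trend adjusted p = 0.00608, main 0.0854). Its signal was above the olfactory receptor percentile. EPRS, which charges glutamate and proline, was at 0.83 (limma trend adjusted p = 0.0318, main 0.144), with a dimmer second probe at -0.30. The other synthetases, named after their values were seen, were NARS at 0.62, GARS at 0.55, WARS at 0.04, AARS at -0.04 and SARS at -0.10, and the asparagine synthetase ASNS, a classical ATF4 target, was at 0.20. None of these 6 passed either fit. Genes for amino acid transport, also named after their values were seen, lay on both sides. SLC38A2 was at 0.77 and SLC3A2, with a mean above the olfactory receptor percentile, at -0.31, and neither passed either fit. Of all 23 genes, 13 had differences above 0 and 10 below.

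Of 21 stress signalling targets of ATF4 and CHOP, 0 passed the main fit and 2 were higher in the trend fit, where 0.962% of all genes were, with a median of 0.017 (0.13 for values as deposited). VLDLR, a lipoprotein receptor, was at 1.25 with 7.14 in berberine samples and 5.89 in control samples (limma trend adjusted p = 0.0229, main 0.0938), and its second probe was at -0.29. BCL2L11, which encodes the cell death protein BIM, was at 1.00 with 9.60 in berberine samples and 8.60 in control samples (limma trend adjusted p = 0.0203, main 0.117). Of all 21, 13 had differences above 0 and 8 below, and the groups did not overlap at 6 of the first and 1 of the second. Over all genes the groups did not overlap at 21.7% higher and 23.3% lower. Usual readouts of ATF4 and CHOP, named after their values were seen, lay on both sides, with BBC3 at 0.86, DDIT4 at 0.52, GDF15 at 0.48, HERPUD1 at 0.17, FGF21 at 0.07, ATF3 at 0.02, SESN2 at 0.02, CHAC1 at -0.04, TRIB3 at -0.11 and PPP1R15A at -0.21. None of these 10 passed either fit. All 21 genes of this list had means over the 4 samples below 9.24. Of 20 chaperones and sensors of the endoplasmic reticulum, 0 passed either fit. DNAJB11, a co-chaperone, was at 1.02 (limma adjusted p = 0.166) with other probes at 0.23 and -0.30, and the list's median was -0.0047, turning to 0.18 without normalization and 0.070 after median centring. The 2 members with means above 9.24 were the chaperone HSPA5 (BiP) at -0.40 and the factor XBP1 at -0.10, named after their values were seen, with a median of -0.25.

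Liver genes that C/EBP proteins are known to activate were read beside the lower CEBPA signal. Of 13 measured, 0 passed the main fit and 1 was lower in the trend fit, where 0.501% of all genes were, and the median was 0.038 (0.21 for values as deposited and 0.094 with median centring). RBP4, the retinol carrier of plasma, read 5611 and 8161 in berberine samples and 17823 and 13847 in control samples, a difference of -1.08 (SE 0.143, limma trend adjusted p = 0.025, main 0.132). It was the 1 gene of this list with a mean above 9.24, and its 2 dimmer probes were at -0.15 and -0.22. Of 18 acute phase and interleukin-6 response genes, the program known for C/EBPβ and C/EBPδ, 0 passed the main fit and 1 was lower in the trend fit, against the same 0.501%. FGG, the fibrinogen gamma chain, was at -1.77 with 4.99 in berberine samples and 6.76 in control samples (limma trend adjusted p = 0.0164, main 0.0688). All 18 had means below 9.24, and the median was -0.018, turning to 0.12 for values as deposited and 0.0072 with median centring.

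Among the 13 hepatocyte, 16 adipocyte, 12 myeloid and 10 fibroblast markers, 0 passed the main fit and 1 passed the trend fit. Over all genes 0.0506% passed the main fit and 1.46% the trend fit. KRT8, a keratin of simple epithelia in the hepatocyte list, was at -4.09 with intensities of 18 and 7 in berberine samples and 214 and 149 in control samples (limma trend adjusted p = 0.0107, main 0.0688). The mean log2 signal of KRT8, 5.42, lay in the background range. The adipocyte marker with the smallest p was FABP4 at 1.00 (limma adjusted p = 0.143), the myeloid one was SFPI1 at 0.64 (0.304, the limma adjusted p) and the fibroblast one was POSTN at 0.96 (0.185, the limma adjusted p). FABP4 ran against most of its list, as 12 of the 16 adipocyte markers had differences below 0 and 4 above. The medians were -0.076 for the hepatocyte, -0.094 for the adipocyte, 0.026 for the myeloid and -0.016 for the fibroblast markers. The hepatocyte median turned to 0.10 and the fibroblast median to 0.26 for values as deposited.

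**Figure D4:**
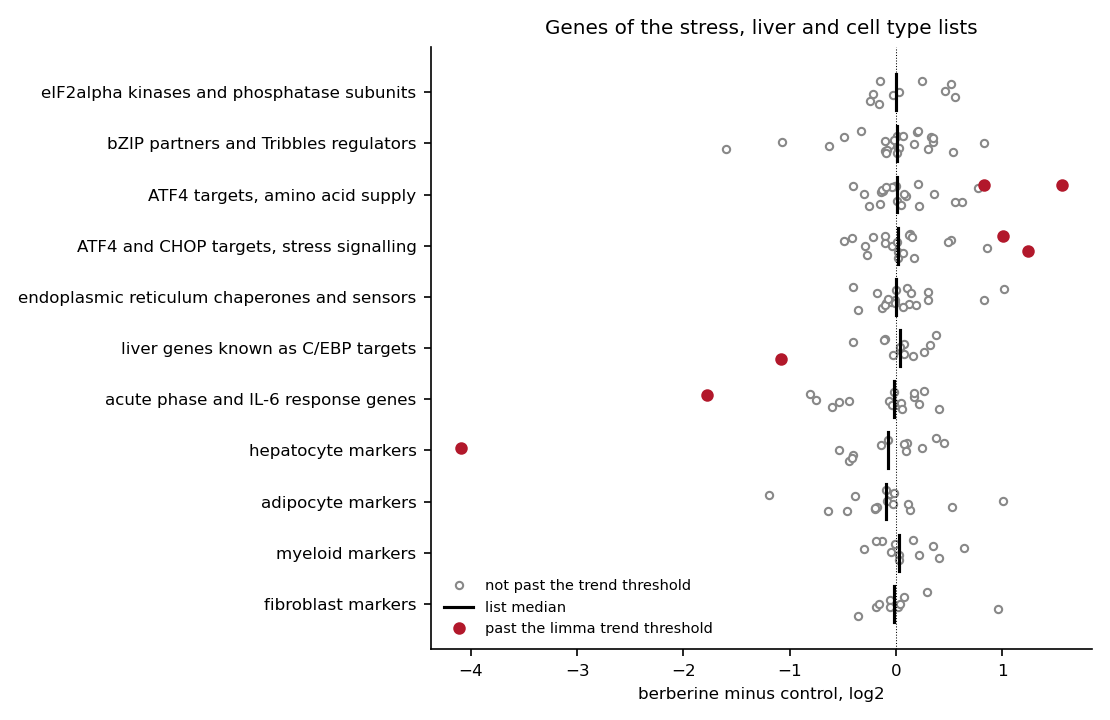
Log2 difference, berberine minus control, of each measured gene of the 11 lists, with list medians as black bars and genes past the limma trend threshold as filled red points. All list medians lie between -0.094 and 0.038, and the filled points are MARS, EPRS, VLDLR, BCL2L11, RBP4, FGG and KRT8.

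Genes whose 4 values ran most like those of a member were sought among the 1626 genes above the olfactory receptor percentile, by the Euclidean distance between log2 values centred on each gene's mean over the 4 samples. Since this picks genes by the same contrast, their differences are a description too. Nearest to CEBPA were IFI35, an interferon-induced protein, at a distance of 0.21, the endocytic receptor LRP1 at 0.28 and LGR4, a receptor for R-spondins, at 0.30. IFI35 read 334 and 338 in berberine samples and 1448 and 1366 in control samples, a log2 difference of -1.85. For LRP1 the difference was -1.64 and for LGR4 it was -1.61.

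Nearest to CEBPB was MARS, at a distance of 0.047, followed by ZFP36L1, a protein of AU-rich mRNA decay, at 0.087 and ANTXR2, a receptor for anthrax toxin, at 0.10. ZFP36L1 read 22549 and 27599 in berberine samples and 9232 and 7674 in control samples, a log2 difference of 1.59. MARS differed by 1.56 and ANTXR2 by 1.62. Nearest to ATF4 were SNRNP48, a protein of the minor spliceosome, at 0.043, CPEB2, a cytoplasmic polyadenylation factor, at 0.066 and S100A6, a calcium-binding protein, at 0.081, with log2 differences of 0.96, 1.05 and 1.05.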

How the data were processed

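RNA of 2 berberine and 2 control samples, grouped and numbered by their titles, was measured on 1-colour arrays with Cy5-labelled amplified RNA, per the labels. Intensity values were deposited as whole numbers on a linear scale. How the authors scanned, background-corrected and normalized them is not given in the sources used here. The labels do not say whether replicates were separate cultures, so the spread behind every p-value may be technical, and the number of arrays limits the precision.

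Gene names come from the platform annotation (20377 probes with 1 symbol, 0 with several, 6046 unnamed and left out). As sample medians spanned 0.53 on the log2 scale, values of all 26423 probes were quantile normalized, set to 0 where negative, and taken as log2(value + 1). The fold changes of dim genes are imprecise on this scale, may be understated, and can grow or shrink with the scaling. Each of 17778 genes was represented by its brightest probe and tested in R 4.3.3 with limma 3.58.1 (lmFit, eBayes, 2 residual degrees of freedom, 2-sided, Benjamini-Hochberg adjustment, threshold 0.05), and the script was tested on simulated data. The members, lists and settings were chosen with earlier results of these data known. Beyond the members, the text names up to 4 genes a list past a limma threshold, otherwise the one with the smallest p, and the 3 genes nearest to CEBPA, CEBPB and ATF4; genes named after their values were seen are marked. List genes were matched by symbol or a unique older human symbol. Alternatives were no normalization, median centring, a pseudocount of 50, a trend or robust variance model, a filter on the dimmest 30% of genes, averaged probes, separate probes, a replicate block, and leaving out each sample. Promoters are from RefSeq (GRCh38.p14). Windows of 5 members were searched, and CEBPD, on chromosome 8, was left out of that search. Figures were drawn with matplotlib 3.10.9.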

Additional observations from a re-analysis of the deposited data

How the results depend on the processing

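The CEBPA minus CEBPB difference of -3.47 stayed within its replicate SD in the 9 alternatives run, from -3.58 to -3.36. Averaged probes could not move it, as each gene had 1 probe, and neither could the replicate block. Median centring had to repeat the value as deposited, since an array's offset cancels in the ratio. The CEBPA difference ran from -2.24 to -1.82, CEBPB from 1.33 to 1.65, ATF4 from 0.73 to 1.01, DDIT3 from 0.057 to 0.42 and CEBPD from -0.31 to -0.015, each keeping its sign, and CEBPG from -0.12 to 0.14 with both signs. The count of genes past the limma threshold, 9 in the fit reported, was 2 for values as deposited, 0 with median centring, 251 with a pseudocount of 50, 260 with an intensity trend, 138 without the dimmest 30% of genes (fewer genes tested) and 3 with each named probe as its own row. At an unadjusted limma p under 0.05 there were 2318 genes in the fit reported, 491 without normalization and 2244 after median centring. With the replicate number as a block the count was 0 (1878 genes at an unadjusted limma p under 0.05), and the members' differences are the same by construction. Deviations of same-numbered samples correlated at 0.090 across genes, so the numbers were not taken as pairs. Without any 1 sample the count was 0 with the fit reported (1312 to 2763 genes at an unadjusted limma p under 0.05) and 0 with the trend, a setting chosen after seeing the data (1380 to 3098 genes). Fits without 1 sample assume that the lone sample varies like the other group, and the cause of the other moves was not tested. Signal near background limits CEBPD, CEBPG, ATF4 and DDIT3.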
